A study of Mus musculus with 60 samples.

Results

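Liver was compared with small intestine, the organs that make and secrete most of the lipoproteins of the blood. The comparison used 8 of the 60 libraries of the series: the 4 labelled liver and the 4 labelled small intestine, each organ with replicates 1 to 4. All came from female C57BL6/J mice 6 weeks old that carried no label of a treatment or an altered gene. Every mouse was perfused through the heart with phosphate-buffered saline containing EDTA before whole tissues were taken, so each library mixes all cells of its organ, and the segment of the small intestine is not given in the labels. The series covers 15 tissues, for work on immunity at the level of the whole body, and counts reads from the 3' ends of polyadenylated RNA primed with barcoded oligo(dT). The labels do not say whether replicates with the same number came from the same mouse.

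The liver makes plasma proteins, very-low-density lipoproteins, bile acids, glucose and urea. The absorptive cells of the small intestine, the enterocytes, digest and take up nutrients at their brush border and pack absorbed fat into chylomicrons. Very-low-density lipoproteins and chylomicrons are both built around apolipoprotein B, loaded with triglyceride in the endoplasmic reticulum. Bile acids circulate between the organs.

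A count is a read assigned to a gene. Library totals were 2645845 to 3058994 counts in liver and 2072584 to 3035803 in small intestine. Levels are given as CPM (counts scaled to the same library total) with TMM, a method that sets that scale from the genes that differ least. Differences are log2 of liver over small intestine with the standard error of the fit, so positive values are higher in liver. Calls needed an adjusted p below 0.05 in the quasi-likelihood test of edgeR and a log2 difference beyond 1 in either direction, so a smaller difference was not called whatever its p. Reads from the 3' end are not divided by gene length, so levels are compared between organs for a gene and not between genes.

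The label was checked against Apoa1, Fabp1 and Cps1 as hepatocyte markers. Fabp1 and Cps1 were called higher in liver, and Apoa1 was not called. All 3 were also abundant in small intestine, at 6589.7 ± 1560.4, 1268 ± 439.6 and 279 ± 33.4 CPM (mean ± SD, n = 4), so here they are not specific to liver. The other 9 hepatocyte markers, Alb and Ahsg among them, were called higher in liver, and all 15 enterocyte markers were called higher in small intestine. Within an organ the Spearman correlation of 2 libraries was 0.964 to 0.974 in liver and 0.967 to 0.978 in small intestine, and between organs it was 0.449 to 0.479.

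Liver replicate 4 carried more small-intestine transcripts than the other liver libraries. Over 54 genes with at least 500 CPM in small intestine and at least 100 times the mean of liver replicates 1 to 3, the median level was 0.648% of the small intestine mean in liver replicate 4. In liver replicates 1, 2 and 3, which chose these genes by their low values, it was 0.0985%, 0.0914% and 0.0919%. Liver replicate 4 was the highest liver library for 52 of the 54 genes. The Paneth cell antimicrobial peptide Defa24, for example, stood at 8.43, 15.4, 18.3 and 165 CPM in liver replicates 1 to 4, against 21260.0, 26578, 22007 and 14921 CPM in the small intestine libraries. For genes high in small intestine the difference is therefore also given without liver replicate 4 where that moved it by more than 1.5 times. In the other direction, 103 genes had at least 500 CPM in liver and at least 100 times the mean of the small intestine libraries. Their median was 0.0513% to 0.0600% of the liver mean in each small intestine library, values that this rule itself keeps low. Small intestine replicate 4 was the highest small intestine library for 40 of the 103 genes.

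**Figure D1:**
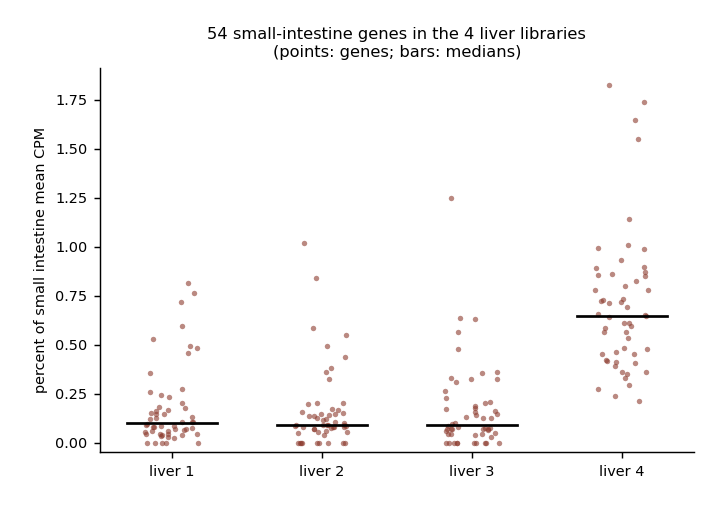
Level of 54 small-intestine genes in each liver library (x axis), as percent of the small intestine mean CPM (y axis). Each point is 1 gene and bars are medians: liver replicate 4 has a median of 0.648%, and the other 3 libraries lie between 0.0914% and 0.0985%.

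Mitochondrial ribosomal RNA took 21.4% to 24.6% of the counts in liver and 7.52% to 9.59% in small intestine, and nuclear protein-coding genes took 68.1% to 71.2% in liver and 82.3% to 84.9% in small intestine. The TMM factors were 0.732 to 0.762 in liver and 1.29 to 1.40 in small intestine. With library totals in place of TMM, the median log2 difference over all tested genes moved from -0.04 to -0.88, a shift of -0.84. The 10975 tested genes with over 3 reads in the lower organ each moved by -0.86 to -0.79, and the 701 with 3 reads or fewer there by -0.79 to -0.37.

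Of 11676 genes tested, 2353 (20.2%) were called higher in liver and 2820 (24.2%) higher in small intestine. Scaled by library totals, these counts were 1313 (11.2%) and 5318 (45.5%), so the share of calls that were higher in liver went from 45.5% to 19.8%. Every count of list members below is to be read against these shares of all tested genes. In bulk tissue, fewer cells of a type and less RNA per cell cannot be told apart.

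The genes with the largest differences at 200 CPM or more were those of specialised functions. On the liver side they were Cyp1a2 and Cyp2c54 (cytochromes P450), Slco1b2 (a bile acid and drug uptake carrier), Dpys (pyrimidine breakdown), Hamp (the iron hormone hepcidin), Cyp2c69, Gc (vitamin D-binding protein) and Mug1 (a plasma protease inhibitor). Cyp1a2 stood at 725, 682, 690.01 and 560.2 CPM in the 4 liver libraries and had no read in small intestine, a level at least 3089.5-fold higher in liver from a floor of 3 reads over the 4 small intestine libraries. Gc stood at 6840.3, 6991, 6981 and 7031 CPM in liver and at 0.295, 0.849, 0.707 and 1.80 CPM in small intestine, a log2 difference of 12.90 ± 0.28. On the small intestine side they were Slc15a1 (the peptide transporter PEPT1), Alpi (intestinal alkaline phosphatase), Clec2e (a C-type lectin), Sis (sucrase-isomaltase), Rbp2 (cellular retinol-binding protein of the enterocyte), Guca2b (uroguanylin), Clca4b (a chloride channel regulator) and Reg4 (a secreted lectin). Guca2b stood at 1.33, 0.496, 0.893 and 3.01 CPM in liver and at 1659, 1225, 829 and 1314 CPM in small intestine, a log2 difference of -9.75 ± 0.33, or -10.34 without liver replicate 4. Slc15a1 had 1 read in all liver libraries together, from liver replicate 4, and the ratio of its pooled level in small intestine to that in liver was 2891 (95% counting interval 519 to 114200.0). The order on the liver side rests on few small intestine reads: Gc had 12 there and each of the other genes 3 or fewer. The order on the small intestine side likewise rests on few liver reads. Without liver replicate 4, 5 of these 8 genes stayed among the 8 largest, and Gpa33 (an intestinal surface antigen), Mptx2 (a pentraxin) and Reg3a (a secreted lectin), with no read in the other 3 liver libraries, took the places of Guca2b, Clca4b and Reg4.

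Genes for lipoprotein proteins and their assembly were mostly higher in liver, but the step that loads fat onto apolipoprotein B was not. Of 42 genes on the list, 39 had enough reads to be tested. The other 3 were Apoc2 and, each overlapping a gene on the opposite strand, Cideb and Pltp, with means under 1.1 CPM in both organs. Of these, 26 were called higher in liver, 7 higher in small intestine and 6 were not called, with a median log2 difference of 2.36 against -0.04 over all tested genes. With library totals the counts were 22, 9 and 8, and without liver replicate 4 they were 26, 7 and 6.

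Apob is the protein on which very-low-density lipoproteins and chylomicrons are built. It stood at 1989, 2355, 2476 and 2519.9 CPM in liver and 415, 312, 293 and 353 CPM in small intestine. The groups did not overlap, and Apob was 6.80-fold higher in liver (log2 2.77 ± 0.15, adjusted p = 3.64e-11). Mttp, the microsomal transfer protein that loads triglyceride onto apolipoprotein B, went the other way, at 173, 169.7, 177 and 187 CPM in liver and 518, 413, 382 and 507 CPM in small intestine. All 4 small intestine libraries exceeded all liver libraries, and the log2 difference was -1.36 ± 0.12, adjusted p = 3.37e-08. Tm6sf2, a membrane protein needed for lipid loading, was likewise higher in small intestine (log2 -1.88 ± 0.13). P4hb, the partner subunit of Mttp, was not called, with 1131 ± 74.3 CPM in liver and 1199 ± 196 CPM in small intestine (log2 -0.08 ± 0.14, adjusted p = 0.598). Pla2g12b and Surf4, which serve lipidation and export of the particles, were not called either (log2 -0.17 ± 0.15 and -0.34 ± 0.13), although with library totals both were called higher in small intestine (-1.01 and -1.18).

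The export machinery of large particles split differently. Mia2 and Mia3, which shape carriers for large cargo at the endoplasmic reticulum, were called higher in liver (log2 1.98 ± 0.11 and 1.69 ± 0.13), Mia3 not with library totals (0.85). Sar1b, the coat GTPase whose human form is mutated in chylomicron retention disease, stood at 153 ± 15.5 CPM in liver and 87.5 ± 5.67 CPM in small intestine and was not called (log2 0.81 ± 0.11, adjusted p = 5.26e-06, turning to -0.03 with library totals). Its relative Sar1a was not called either (log2 0.19 ± 0.11, and -0.65 with library totals).

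The machinery of Apob mRNA editing, which gives the short apolipoprotein B48, was also divided. Apobec1, the editing enzyme, stood at 13.3, 8.93, 19.2 and 18.04 CPM in liver and 38.05, 35.4, 35.3 and 41.7 CPM in small intestine, without overlap, and was called higher in small intestine (log2 -1.33 ± 0.19, adjusted p = 7.94e-06). Its cofactor Rbm47 was called higher in small intestine (log2 -1.37 ± 0.11), while the other cofactor, A1cf, was called higher in liver (log2 2.79 ± 0.13).

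The exchangeable apolipoproteins, which coat the particles, had 3 patterns. Most were liver genes: Apoa2, a protein of high-density lipoprotein, stood at 17971, 18225, 17809 and 17178 CPM in liver and 5.90, 3.96, 5.18 and 10.8 CPM in small intestine (log2 11.46 ± 0.30, adjusted p = 5.11e-15). Apoc1 (log2 11.68 ± 0.35), Apoc4 (log2 10.88 ± 0.27, or 11.51 without small intestine replicate 4), Apoh, Apof, Apom, Apon and Apoa5 were likewise called higher in liver, Apof and Apom with 1 and 2 reads in all small intestine libraries together. Apoe, the ligand for uptake of remnant particles, was also called higher in liver, but kept 315 ± 70.7 CPM in small intestine against 21351 ± 736 CPM in liver (log2 6.08 ± 0.22). Apoa4, a chylomicron protein, was the reverse, at 60.8, 57.6, 45.6 and 74.2 CPM in liver and 1748, 1070.5, 821 and 1600.2 CPM in small intestine (log2 -4.46 ± 0.24, adjusted p = 3.5e-11). Apoc3, an inhibitor of triglyceride clearance, was abundant in both organs and higher in liver, at 7102 ± 294 against 1387 ± 476 CPM (log2 2.36 ± 0.21).

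Apoa1, the main protein of high-density lipoprotein, stood at 7196, 7323, 10101 and 11390.0 CPM in liver and 8660.0, 6349, 4873 and 6477 CPM in small intestine. The groups overlapped, and the difference did not pass the test (log2 0.45 ± 0.21, adjusted p = 0.0614), with the opposite sign under library totals (-0.39). Apoa1, Apoc3, Apoa4 and Apoa5 lie together within 43.34 kb of chromosome 9 (46228580 to 46271919, mm10 coordinates of GENCODE release 21). Within that stretch Apoa5, a regulator of lipoprotein lipase, stood at 249, 255, 289 and 265 CPM in liver and had 2 reads in all small intestine libraries together, a ratio of pooled levels of 1847 (95% counting interval 511 to 15262). This cluster thus held genes called in each direction, while the tested genes of the Apoe cluster, Apoe, Apoc1 and Apoc4 within 27.61 kb of chromosome 7 (19671579 to 19699188), were all called higher in liver. Apoc2, the fourth gene there, had too few assigned reads to be tested, at 0.111 CPM in liver, and overlaps another annotated gene on the same strand.

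The tested genes of proteins that act on particles in the blood or take them up were called higher in liver with 1 exception. Lcat, which esterifies cholesterol on high-density lipoprotein, stood at 552 ± 24.3 CPM in liver and 0.77 ± 0.512 CPM in small intestine (log2 9.50 ± 0.21). Lipc (hepatic lipase), Angptl4 and Angptl8 (inhibitors of lipoprotein lipase), Lpl and Gpihbp1 were also called higher in liver. The receptors Lrp1 and Vldlr were called higher in liver (log2 1.70 ± 0.11 and 1.32 ± 0.22) but not with library totals (0.86 and 0.48). Sort1, a sorting receptor for apolipoprotein B, was called higher in small intestine, at 67.2 ± 5.98 against 11.4 ± 1.65 CPM (log2 -2.56 ± 0.15). Of the droplet coat proteins, Plin2 was called higher in liver (log2 2.75 ± 0.17) and Plin3 higher in small intestine (log2 -2.33 ± 0.15).

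**Figure D2:**
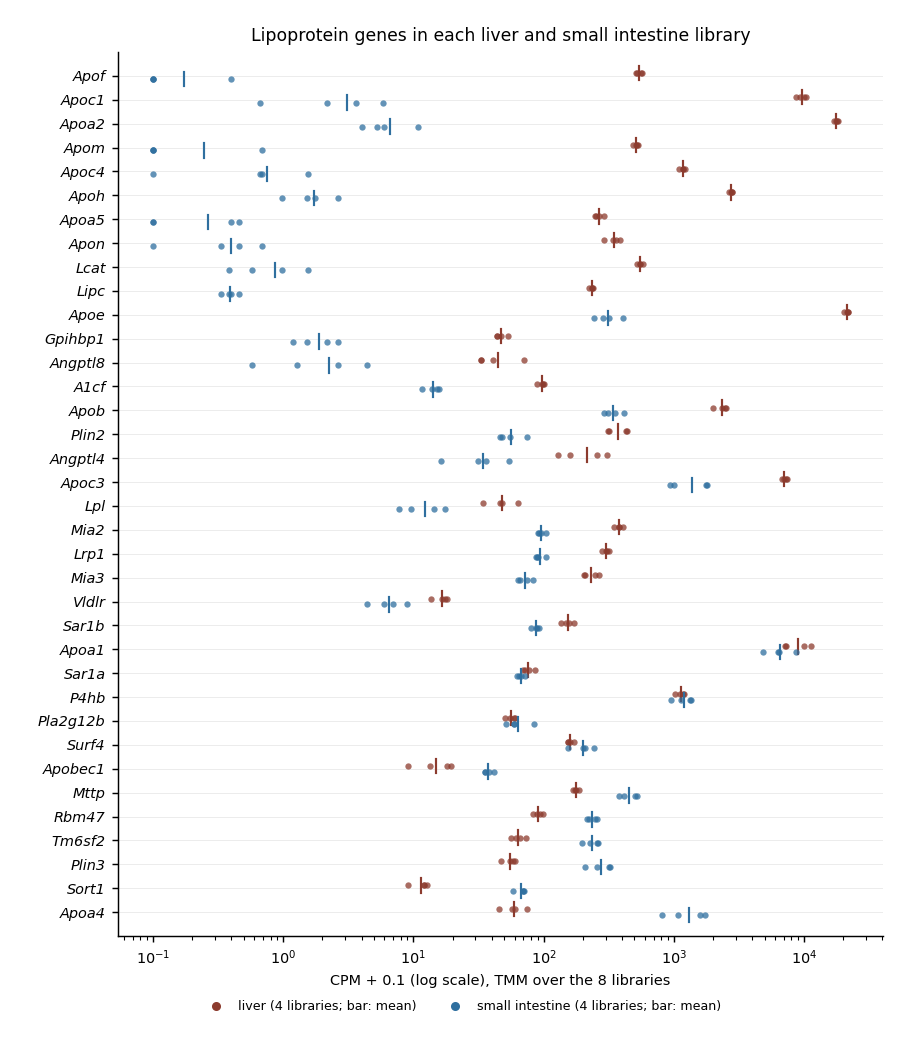
CPM of 36 of the 39 tested lipoprotein genes (y axis, ordered by log2 difference) in each library on a log x axis with 0.1 added, points for libraries and bars for means. Liver libraries lie above small intestine libraries for the 23 of these called higher in liver at the top (3 others of the 26 are not drawn), the organs overlap for Apoa1, and Apoa4 at the bottom is 22.01-fold higher in small intestine.

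Several enzymes and carriers of fatty acid uptake and triglyceride synthesis with like functions were called in opposite directions. Of 33 genes, 32 were tested, and 20 were called higher in liver, 9 higher in small intestine and 3 were not called (median log2 1.73). With library totals the counts were 14, 10 and 8. Fabp1, the liver-type fatty acid-binding protein, stood at 4398, 4556, 6181 and 6612 CPM in liver and 1406, 999, 844 and 1824 CPM in small intestine, 4.29-fold higher in liver (log2 2.10 ± 0.23, adjusted p = 3.47e-07) and still abundant in both. Fabp2, the intestinal form, stood at 78.1, 77.9, 96.9 and 115 CPM in liver and 7370.0, 6620.0, 4606 and 6210.5 CPM in small intestine, 67.5-fold higher in small intestine (log2 -6.08 ± 0.22, adjusted p = 1.64e-13).

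The last step of triglyceride synthesis showed the same split. Dgat2 stood at 575, 633, 471 and 578 CPM in liver and 157, 117, 86.9 and 141 CPM in small intestine (log2 2.17 ± 0.16). Dgat1, an unrelated enzyme for the same reaction, stood at 21.3, 28.3, 24.1 and 31.1 CPM in liver and 785, 622, 526 and 755 CPM in small intestine (log2 -4.68 ± 0.17). Mogat2, which re-esterifies absorbed monoacylglycerol and feeds that step in the gut, was 267-fold higher in small intestine, at 222 ± 33.98 against 0.832 ± 0.481 CPM (log2 -8.00 ± 0.25). Neither organ overlapped the other for any of these 3 genes.

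The earlier steps of the glycerol phosphate pathway divided in the same manner. Gpam and Gpat4 were called higher in liver (log2 4.01 ± 0.38 and 1.83 ± 0.13), and Gpat3 higher in small intestine (-3.33 ± 0.18). Agpat3 was called higher in liver (1.54 ± 0.12) and Agpat1 higher in small intestine (-3.15 ± 0.22), while Agpat2 was not called (0.43 ± 0.14, and -0.41 with library totals). Of the lipins, the phosphatases that make diacylglycerol, Lpin1 and Lpin2 were called higher in liver (5.78 ± 0.33 and 2.50 ± 0.20) and Lpin3 higher in small intestine (-2.97 ± 0.24). With library totals Gpat4 and Agpat3 were no longer called (0.98 and 0.70).

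Carriers and activating enzymes followed. Slc27a2 and Slc27a5, transport proteins that also activate very long chain fatty acids and bile acids, were called higher in liver, Slc27a2 with a log2 of 3.99 ± 0.15. Slc27a4 was called higher in small intestine (-3.57 ± 0.20). Acsl1, a long-chain acyl-CoA synthetase, was called higher in liver (4.51 ± 0.14), and Acsl5 was not called, at 431 ± 55.2 CPM in liver and 617 ± 129 CPM in small intestine (-0.52 ± 0.15, adjusted p = 0.00629, called higher in small intestine with library totals, -1.36). Cd36, a fatty acid translocase, stood near 58.8 CPM in liver and 54.9 CPM in small intestine and was not called (0.11 ± 0.19, and -0.73 with library totals).

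Genes of new fatty acid synthesis were called higher in liver, with wide spread between liver libraries. Scd1, the stearoyl-CoA desaturase, stood at 4194, 5052, 3716 and 2216 CPM in liver and 30.4, 16.1, 27.6 and 37.1 CPM in small intestine (log2 7.10 ± 0.30, adjusted p = 1.75e-12), and its relative Scd2 was called higher in small intestine (log2 -2.35 ± 0.29). Fasn (fatty acid synthase) stood at 399, 707, 224 and 248 CPM in liver and 29.8, 30.6, 32.5 and 29.9 CPM in small intestine (log2 3.68 ± 0.30). Acaca, Acacb and the elongase Elovl5 were also called higher in liver. Elovl6 was called (log2 1.35 ± 0.26) but not without liver replicate 2, its highest library (0.93), and neither with library totals (0.50).

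**Figure D3:**
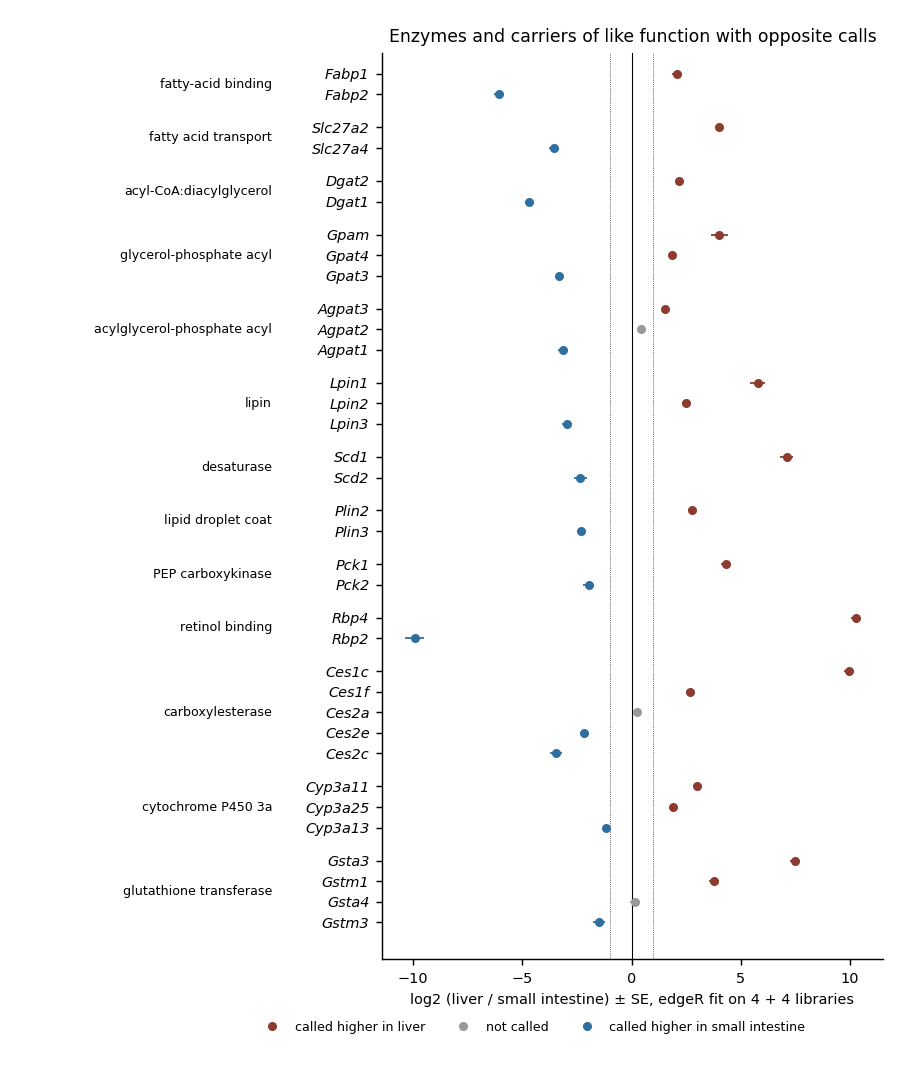
Log2 of liver over small intestine with its standard error (x axis) for enzymes and carriers grouped by family or reaction (y axis), from the fit on 4 liver and 4 small intestine libraries, with dotted lines at the threshold of 1 in either direction. The groups were picked because they hold members called in each direction, as with Dgat2 at 2.17 and Dgat1 at -4.68, and not every member of a family is drawn.

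Cholesterol synthesis was higher in liver and cholesterol absorption in small intestine. All 26 genes of the list were tested, and 19 were called higher in liver, 3 higher in small intestine and 4 were not called (median log2 1.87, counts of 14, 6 and 6 with library totals). Npc1l1, the sterol uptake protein and target of ezetimibe, stood at 0, 0, 1.79 and 1.00 CPM in liver and 542, 468, 324 and 420.3 CPM in small intestine, without overlap (log2 -9.19 ± 0.34, or -10.22 without liver replicate 3, which holds 4 of its 6 liver reads). Soat1 and Soat2, which esterify cholesterol, were the other genes called higher in small intestine (log2 -1.76 ± 0.24 and -1.36 ± 0.18).

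The 11 synthesis enzymes of the list were all called higher in liver, although Sqle and Mvk were not with library totals (0.80 and 1.00). Hmgcs1, which makes the HMG-CoA used for sterols, stood at 903, 913, 688 and 869 CPM in liver and 109, 132, 94.9 and 90.3 CPM in small intestine (log2 2.98 ± 0.15, adjusted p = 1.29e-11). Fdft1 was called with a log2 of 2.83 ± 0.17 and Cyp51 with 2.77 ± 0.14. The regulators Insig1 and Insig2 were called higher in liver, Insig1 at 239 ± 34.04 against 17.3 ± 3.16 CPM (log2 3.80 ± 0.15). Srebf2, the gene of the transcription factor that drives this pathway, was not called, at 39.99 ± 8.46 CPM in liver and 42.4 ± 5.96 CPM in small intestine (log2 -0.09 ± 0.16, adjusted p = 0.626).

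Export of sterols was shared. Abcg5 and Abcg8, adjacent genes on chromosome 17 (84658234 to 84700333) whose products pump sterols into bile and into the gut lumen as a pair, stood at 91.9 ± 16.2 and 88.4 ± 14.1 CPM in liver and at 183 ± 28.5 and 133 ± 14.6 CPM in small intestine. Neither was called (log2 -0.99 ± 0.14 and -0.58 ± 0.13). Abcg5 lies so near the threshold that it was called higher in small intestine without liver replicate 3 (-1.10), small intestine replicate 2 (-1.02) or small intestine replicate 3 (-1.08) and with DESeq2 (-1.01), and both genes were called with library totals (-1.83 and -1.42). Scarb1, the receptor for high-density lipoprotein, and Abca1, which loads cholesterol onto it, were called higher in liver (log2 3.95 ± 0.19 and 2.41 ± 0.14).

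Bile acid synthesis genes were higher in liver, and genes of bile acid recovery in small intestine. Of 24 genes, 22 were tested: 17 were called higher in liver, 5 higher in small intestine and none was left uncalled, with TMM and with library totals (median log2 5.16). Cyp7a1, the rate-limiting enzyme of synthesis, stood at 208, 237, 109 and 70.7 CPM in liver and had no read in small intestine, at least 726-fold higher in liver. Cyp8b1, which sets the share of cholic acid, stood at 229, 244, 179 and 112 CPM in liver and had 1 read in small intestine, a ratio of 2676 (95% counting interval 479.6 to 105750.0). Baat, which conjugates bile acids, was called higher in liver (log2 6.33 ± 0.19).

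Transporters were divided between the organs. Slc10a1, the hepatic uptake carrier NTCP, stood at 759.7 ± 106 CPM in liver and 0.778 ± 0.17 CPM in small intestine (log2 9.83 ± 0.21). Abcb11, the canalicular bile salt pump, stood at 670.01, 649.6, 585 and 575 CPM in liver and had 2 reads in small intestine, a ratio of 4328 (95% counting interval 1198 to 35751). Slc10a2, the ileal uptake carrier ASBT, stood at 10.2, 17.9, 16.97 and 11.5 CPM in liver and 67.8, 46.4, 43.3 and 9.36 CPM in small intestine, where replicate 4 lay below every liver library (log2 -1.58 ± 0.40, adjusted p = 0.0021). Fabp6, the ileal bile acid-binding protein, stood at 1.77, 1.49, 1.79 and 20.04 CPM in liver and 3014, 3179, 2463 and 1394 CPM in small intestine (log2 -8.68 ± 0.53, or -10.49 without liver replicate 4). Slc51a and Slc51b, the subunits of the basolateral exporter, were called higher in small intestine (log2 -8.40 ± 0.29, or -9.18 without liver replicate 4 for Slc51a).

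The hormone of this circuit was higher in small intestine and its receptor in liver. Fgf15, the gut hormone that lowers hepatic bile acid synthesis, stood at 40.7, 41.9, 28.3 and 12.95 CPM in small intestine and had 1 read in liver, from replicate 4, a ratio of 269 (95% counting interval 48.1 to 10666). Its receptor Fgfr4 stood at 21.2 ± 2.92 CPM in liver and 2.14 ± 0.881 CPM in small intestine (log2 3.27 ± 0.27). The coreceptor Klb stood at 24.2 ± 3.93 CPM in liver and had 3 reads in small intestine, a ratio of 112 (95% counting interval 37.8 to 548). Nr1h4, the bile acid receptor FXR, was present in both and higher in liver, at 153 ± 14.8 against 36.2 ± 6.09 CPM (log2 2.07 ± 0.13).

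The first steps of the urea cycle were abundant in both organs, and the later steps in liver. Liver carries the whole cycle, and the enterocyte makes citrulline from glutamine and proline. Of 19 genes, 18 were tested: 12 were called higher in liver, 4 higher in small intestine and 2 were not called (median log2 2.63, counts of 10, 4 and 4 with library totals). Cps1 and Otc, the mitochondrial enzymes that make citrulline, were called higher in liver but stayed abundant in small intestine. Cps1 stood at 2952, 3324, 2464 and 2398 CPM in liver and 248, 288, 322 and 258 CPM in small intestine (log2 3.32 ± 0.16, adjusted p = 6.07e-12), and Otc at 689, 662, 707 and 512 CPM and 122, 107, 109.5 and 119 CPM (log2 2.49 ± 0.13).

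The cytosolic steps that follow were far higher in liver. Ass1 stood at 1397, 1444, 1056 and 886 CPM in liver and 1.47, 4.24, 2.59 and 1.44 CPM in small intestine, 491-fold higher in liver (log2 8.88 ± 0.27, adjusted p = 2.74e-14). Asl was 35.3-fold higher (log2 5.13 ± 0.17), and Arg1, which releases urea, 1404-fold higher (log2 10.40 ± 0.21). Nags, which makes the activator of Cps1, was not called, at 44.9 ± 7.60 CPM in liver and 34.4 ± 3.81 CPM in small intestine (log2 0.38 ± 0.14, adjusted p = 0.0269, and -0.47 with library totals). Oat, which links ornithine to proline and glutamate, stood at 717, 639.6, 600.2 and 492 CPM in liver and 574, 579, 628 and 466 CPM in small intestine, overlapping and not called (log2 0.12 ± 0.13, adjusted p = 0.428, and -0.72 with library totals).

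Enzymes that supply and use ornithine and glutamate were called in both directions. Aldh18a1, which starts ornithine and proline synthesis from glutamate, stood at 0, 0, 1.79 and 0.501 CPM in liver and 74.9, 73.3, 70.7 and 81.3 CPM in small intestine (log2 -6.89 ± 0.32, or -8.52 without liver replicate 3). Gls2, the liver-type glutaminase, was called higher in liver, at 309.8 ± 63.04 CPM against 1.02 ± 1.01 CPM in small intestine (log2 8.30 ± 0.29, or 9.06 without small intestine replicate 4). Arg2, the mitochondrial arginase, stood at 51.2 ± 9.58 CPM in small intestine and had 3 reads in liver, all in replicate 3. The ratio of its pooled level in small intestine to that in liver was 143 (95% counting interval 48.6 to 693).

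Glucose and fructose genes had no common direction. Of 24 genes, 23 were tested: 9 were called higher in liver, 7 higher in small intestine and 7 were not called, with a median log2 of 0.67 that turned to -0.18 with library totals (counts of 6, 10 and 7). Without liver replicate 4 the counts were 11, 8 and 4. Genes of glucose release were higher in liver. G6pc, the last enzyme of glucose release, stood at 686, 1262, 949 and 672 CPM in liver and 22.1, 16.1, 22.4 and 26.3 CPM in small intestine (log2 5.36 ± 0.23). Pck1 (log2 4.30 ± 0.23) and Fbp1 (log2 5.13 ± 0.19) were also called higher in liver, whereas Pck2, the mitochondrial form of Pck1, was called higher in small intestine (log2 -1.96 ± 0.25). Hk2, a hexokinase, was called higher in small intestine (log2 -2.55 ± 0.28).

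Genes of sugar uptake from the lumen were higher in small intestine. Slc5a1, the sodium-glucose transporter SGLT1, stood at 1.33, 3.97, 1.79 and 5.01 CPM in liver and 1187, 1047, 774 and 1164 CPM in small intestine (log2 -8.44 ± 0.26, adjusted p = 3.59e-14). The fructose transporter Slc2a5 (log2 -5.07 ± 0.27), the glycolytic Pkm (log2 -4.10 ± 0.17) and Pfkp (log2 -4.67 ± 0.25) were called with it. Of the enzymes that break down fructose, Khk, the ketohexokinase, stood at 507 ± 121 CPM in liver and 279 ± 54.3 CPM in small intestine (log2 0.86 ± 0.17, adjusted p = 0.000255). It was not called, except without liver replicate 4 (1.01), and its log2 was 0.02 with library totals. Tkfc, a later enzyme, was not called (log2 0.67 ± 0.19, and -0.18 with library totals). Slc2a2, the transporter that passes both sugars to the blood, was called higher in liver (log2 1.08 ± 0.17), but not without small intestine replicate 2 (0.97) or 3 (0.95) and not with library totals (0.23).

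Every tested gene of the brush border was called higher in small intestine, 28 of 28 against 24.2% of all tested genes. The other 3 of the 31 had too few reads. Of those 3, Slc3a1 and Vill stood at 1.18 and 2.11 CPM in liver and 1.77 and 2.22 CPM in small intestine. Tmprss15 stood at 0 CPM in liver and 7.23 CPM in small intestine. The median log2 was -8.18, -8.09 with the 6 genes of 3 or fewer liver reads set at their bound or ratio, and -9.29 without liver replicate 4. Sis, which splits sucrose and starch, stood at 0, 0, 0.447 and 3.51 CPM in liver and 1002, 975, 868 and 1137 CPM in small intestine (log2 -9.98 ± 0.36, or -12.30 without liver replicate 4). Lct, the lactase, stood at 0.444, 0.992, 0 and 6.01 CPM in liver and 1028, 714, 598 and 965 CPM in small intestine (log2 -8.83 ± 0.41, or -10.67 without liver replicate 4). Slc9a3, the sodium-proton exchanger, had no read in liver and 26.3 ± 2.87 CPM in small intestine, at least 74.4-fold higher there.

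A few brush border peptidases were also clear in liver. Dpp4 stood at 109.6, 118, 119 and 119 CPM in liver and 383, 321, 251 and 288 CPM in small intestine, the smallest difference of the list (log2 -1.41 ± 0.13, adjusted p = 4.43e-08). Mgam (maltase-glucoamylase), Enpep, Mme, Anpep and the protocadherin Cdhr5 had liver means of 101, 51.9, 38.3, 52.2 and 48.3 CPM. For each of these genes the 4 liver libraries lay within 1.5 times of each other, replicate 4 included. Vil1 (villin, the core of the microvillus) stood at 0.444, 1.49, 0.447 and 5.51 CPM in liver, highest in replicate 4, and 1297, 1022, 805 and 1018 CPM in small intestine (log2 -9.06 ± 0.34, or -10.30 without liver replicate 4).

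All 39 genes of plasma proteins were called higher in liver, against 20.2% of all tested genes, with a median log2 of 11.01 (10.89 with the 7 genes of 3 or fewer small intestine reads at their bound or ratio). Alb, serum albumin, stood at 66284, 62013, 63785 and 70363 CPM in liver and 12.98, 6.79, 8.71 and 20.9 CPM in small intestine (log2 12.41 ± 0.40, adjusted p = 5.16e-14). Ahsg (fetuin-A) stood at 9057 ± 770.2 CPM in liver and 1.58 ± 0.27 CPM in small intestine (log2 12.45 ± 0.25). Among clotting factors, F2 (prothrombin) stood at 1567 ± 63.2 CPM in liver and 0.685 ± 0.263 CPM in small intestine (log2 11.01 ± 0.21), and Fgb (fibrinogen beta chain) at 6315 ± 910.4 CPM and 1.09 ± 0.556 CPM (log2 12.46 ± 0.29). The smallest difference was that of Agt, the precursor of angiotensin, at 786 ± 51.2 CPM in liver and 18.7 ± 1.22 CPM in small intestine (log2 5.39 ± 0.13). Reads of the Serpina1 genes, whose copies are almost the same in sequence, may have been exchanged or lost.

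Genes of ketone synthesis and fatty acid oxidation were more often called higher in liver than higher in small intestine. Of 24 genes, 22 were tested: 14 were called higher in liver, 1 higher in small intestine and 7 were not called (median log2 1.41, counts of 9, 3 and 10 with library totals). Oxct1, which lets a tissue use ketones, was the 1 gene called higher in small intestine, at 15.1, 5.46, 8.04 and 9.02 CPM in liver and 97.03, 94.8, 91.1 and 86 CPM in small intestine (log2 -3.28 ± 0.19, adjusted p = 1.23e-10). Ppara, the gene of the receptor that drives these pathways, was called higher in liver (log2 2.88 ± 0.21).

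The subunits of the trifunctional protein of beta oxidation were not called. Hadha stood at 379.9 ± 41.2 CPM in liver and 215 ± 34.99 CPM in small intestine (log2 0.82 ± 0.13, adjusted p = 2.69e-05, and -0.02 with library totals), and Hadhb at 81.9 ± 17.7 and 49.8 ± 10.8 CPM (log2 0.72 ± 0.17, and -0.12 with library totals). Cpt2 was not called either (log2 0.51 ± 0.16, and -0.34 with library totals). Cpt1a, the entry point of fatty acids into mitochondria, was called higher in liver (log2 1.42 ± 0.11) but not with library totals (0.57). Acaa1b and Acaa1a, near-identical peroxisomal thiolases, had log2 differences of 5.14 ± 0.24 and -0.33 ± 0.14, of which the first passed the call, and their reads may be split. Acaa1a was called higher in small intestine with library totals (-1.17).

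The carriers of retinol inside the enterocyte and in the blood differed between the organs by over 9 on the log2 scale, in opposite directions. Of 21 genes, 18 were tested: 9 were called higher in liver, 4 higher in small intestine and 5 were not called (median log2 1.29, counts of 8, 6 and 4 with library totals). Rbp2, which carries retinol inside the enterocyte, stood at 0.444, 0, 0 and 3.51 CPM in liver and 1189, 787, 620.1 and 1274 CPM in small intestine (log2 -9.94 ± 0.44, or -12.26 without liver replicate 4). Rbp4, which carries retinol in the blood, stood at 4633, 4617, 4314 and 4236 CPM in liver and 3.54, 3.68, 3.77 and 3.24 CPM in small intestine (log2 10.26 ± 0.20, adjusted p = 6.45e-16). Isx, a gut repressor of carotenoid uptake, stood at 59.3, 67.9, 43.1 and 34.9 CPM in small intestine and had 1 read in liver, a ratio of 439.5 (95% counting interval 78.6 to 17383). Rdh7, a retinol dehydrogenase, was high in both and higher in liver, at 1639 ± 35.3 against 176 ± 33.98 CPM (log2 3.22 ± 0.15). Lrat, which stores retinol as ester, was not called, at 30.6 ± 8.39 CPM in liver and 17.4 ± 4.39 CPM in small intestine (log2 0.84 ± 0.21, adjusted p = 0.00235, and -0.01 with library totals), except without liver replicate 2, its lowest there (1.02).

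Genes of systemic iron control were higher in liver. Of 20 genes, 18 were tested: 11 were called higher in liver, 3 higher in small intestine and 4 were not called (median log2 2.17, counts of 10, 5 and 3 with library totals). Hamp, the gene of hepcidin, stood at 2586, 2733, 1835 and 1751 CPM in liver and had 3 reads in small intestine, a ratio of 10355 (95% counting interval 3543 to 50219). Reads of its near copy Hamp2 may be shared with it. Tfr2, a sensor of transferrin, stood at 276, 277, 247 and 274 CPM in liver and had no read in small intestine, at least 1250.1-fold higher in liver. Trf, the gene of transferrin, was called higher in liver (log2 9.06 ± 0.30). Of the genes of iron uptake, Cybrd1, a ferric reductase of the lumenal membrane, stood at 2.95, 5.09, 4.71 and 10.8 CPM in small intestine and had 2 reads in liver, a ratio of pooled levels of 23.8 (95% counting interval 6.36 to 199.8). Slc11a2, the lumenal iron carrier, was not called (log2 -0.77 ± 0.22), except with library totals (-1.61). Slc46a1, a folate carrier that also carries heme, was not called (log2 -0.98 ± 0.24) but was called higher in small intestine with DESeq2 (-1.02), with library totals (-1.82) and without liver replicate 1 (-1.01) or small intestine replicate 1, 2 or 3 (-1.03, -1.11 and -1.12). Heph, the ferroxidase of the enterocyte, stood at 1.77, 1.98, 2.68 and 2.51 CPM in liver and 98.8, 76.1, 80.5 and 84.2 CPM in small intestine (log2 -5.22 ± 0.19, adjusted p = 2.88e-13). Tfrc, the transferrin receptor, was called higher in small intestine (log2 -2.85 ± 0.21).

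Slc40a1, the iron exporter ferroportin on which hepcidin acts, stood at 135, 132, 158 and 130.3 CPM in liver and 7.67, 19.8, 32.5 and 69.1 CPM in small intestine. It was called higher in liver (log2 2.14 ± 0.37, adjusted p = 6.74e-05, or 2.76 without small intestine replicate 4), and the small intestine libraries spread over a wide range. Fth1, the ferritin heavy chain, was not called, at 2338 ± 210.4 CPM in liver and 2567 ± 886 CPM in small intestine (log2 -0.13 ± 0.19, adjusted p = 0.544), while Ftl1, the light chain, was called higher in liver (log2 2.20 ± 0.15). The copper and iron oxidase Cp of plasma, the counterpart of Heph, was called higher in liver (log2 8.07 ± 0.19).

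Drug metabolism was divided within gene families. Of 57 genes, 55 were tested: 33 were called higher in liver, 16 higher in small intestine and 6 were not called (median log2 3.01, counts of 32, 17 and 6 with library totals). Among cytochromes of the 2c family, Cyp2c37, Cyp2c50, Cyp2c54 and Cyp2c70 were called higher in liver, and Cyp2c55, Cyp2c65 and Cyp2c66 higher in small intestine. Cyp2c70, which makes muricholic acid, stood at 782 ± 36.7 CPM in liver and 0.498 ± 0.339 CPM in small intestine (log2 10.48 ± 0.24). Cyp2c66 had no read in liver and stood at 30.97, 45.5, 42.4 and 87.4 CPM in small intestine, at least 146-fold higher there. Cyp2c29 was called higher in liver, at 2402 ± 215 CPM, while the small intestine libraries stood at 11.5, 12.4, 20.3 and 116 CPM, so that the log2 of 5.95 ± 0.58 became 7.32 without small intestine replicate 4.

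The 3a family was shared. Cyp3a11, the main drug-oxidising form, stood at 2794, 2668, 2566 and 2183 CPM in liver and 329.7, 296, 182 and 461 CPM in small intestine (log2 3.01 ± 0.22, adjusted p = 2.36e-09). Cyp3a25 was called higher in liver (log2 1.92 ± 0.16) and Cyp3a13 higher in small intestine (log2 -1.18 ± 0.13). Of the carboxylesterases, all 6 tested Ces1 genes were called higher in liver, Ces1c at 3242 ± 142 against 3.33 ± 1.27 CPM (log2 9.94 ± 0.23). Ces2c and Ces2e were called higher in small intestine (log2 -3.44 ± 0.27 and -2.19 ± 0.14), and Ces2a was not called (log2 0.27 ± 0.13, and -0.57 with library totals).

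Conjugation and efflux followed both patterns. The sulfotransferases Sult1b1 (log2 -2.70 ± 0.14) and Sult2b1 were called higher in small intestine and Sult1a1 higher in liver (log2 6.47 ± 0.16). The glutathione transferases Gsta3 (log2 7.50 ± 0.22) and Gstm1 (log2 3.79 ± 0.23) were called higher in liver and Gstm3 higher in small intestine (log2 -1.49 ± 0.26), while Gsta4 and Gstp1 were not called (log2 0.15 ± 0.24 and -0.07 ± 0.15, Gsta4 turning to -0.70 with library totals). Abcb1a, the P-glycoprotein of the lumenal membrane, stood at 8.87, 7.44, 8.93 and 6.01 CPM in liver and 136, 134, 108 and 122 CPM in small intestine (log2 -3.98 ± 0.16, adjusted p = 5.88e-13). Abcg2, another lumenal pump, was called higher in small intestine (log2 -1.10 ± 0.14), and Abcc2, a canalicular pump, higher in liver (log2 1.84 ± 0.12, 1.00 and not called with library totals). These families hold near-identical copies, so reads of 1 member may have been assigned to another or lost.

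**Figure D4:**
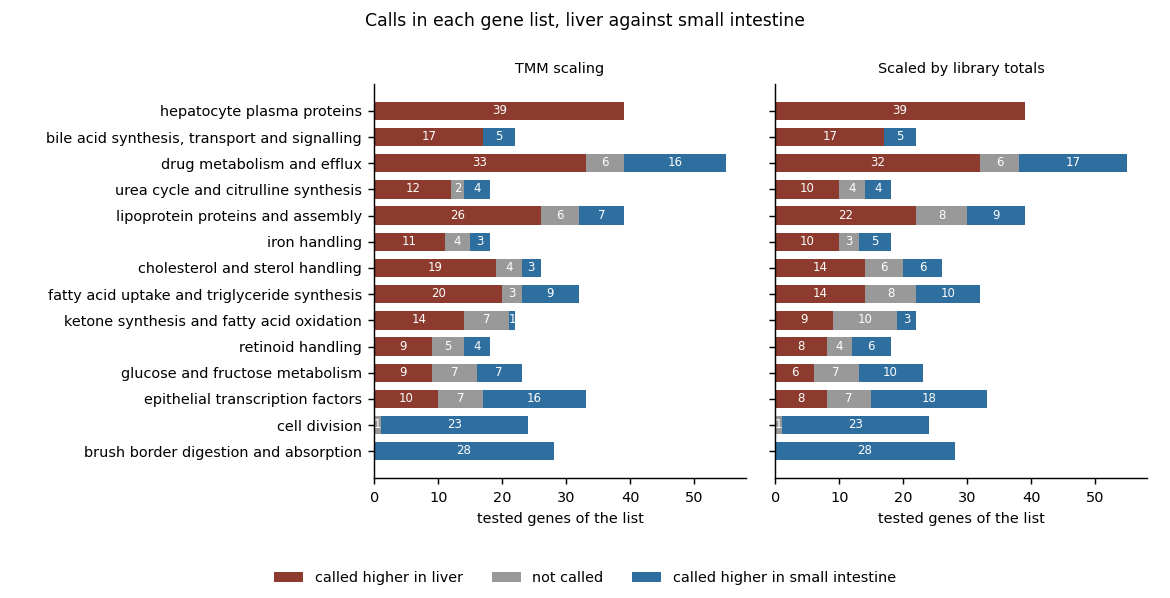
Number of tested genes (x axis) called higher in liver, not called or called higher in small intestine in each of 14 gene lists (y axis, ordered by median log2), with TMM scaling on the left and library totals on the right. All 39 plasma protein genes and all 28 brush border genes keep their call on both sides, and the glucose and fructose list turns from 9 and 7 calls to 6 and 10.

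Some transcription factors were at like levels in both epithelia and others were nearly absent from 1 of them. Of 38 genes, 33 were tested: 10 were called higher in liver, 16 higher in small intestine and 7 were not called (median log2 -0.83, counts of 8, 18 and 7 with library totals). Hnf4a, a nuclear receptor at the base of both programs, stood at 337, 403, 392 and 497 CPM in liver and 343, 308, 321 and 291 CPM in small intestine. The groups overlapped and Hnf4a was not called (log2 0.37 ± 0.12, adjusted p = 0.0157, and -0.48 with library totals). Its relative Hnf4g stood at 0.887, 0, 0 and 0.501 CPM in liver and 53.1, 57.4, 46.2 and 58.3 CPM in small intestine, a ratio of pooled levels of 151 (95% counting interval 51.3 to 732) from 3 liver reads. Creb3l3, a membrane-bound factor of apolipoprotein and fasting genes, stood at 263 ± 65.6 CPM in liver and 257 ± 74.04 CPM in small intestine and was not called (log2 0.03 ± 0.20, adjusted p = 0.886, and -0.80 with library totals).

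Factors called higher in liver included Prox1, with 172, 163, 160.3 and 125 CPM in liver and 3.24, 3.96, 4.47 and 3.60 CPM in small intestine (log2 5.31 ± 0.17), the CCAAT-binding Cebpa and Cebpb (log2 2.39 ± 0.13 and 2.95 ± 0.16), Foxa2 (log2 2.77 ± 0.28) and the drug sensor Nr1i3 (log2 3.72 ± 0.34). Nr1i2, the other drug sensor, was not called (log2 0.51 ± 0.16, and -0.33 with library totals). Factors called higher in small intestine included Klf5, with 1.77, 0, 0.447 and 6.51 CPM in liver and 696, 705, 618 and 563 CPM in small intestine (log2 -8.22 ± 0.35, or -9.63 without liver replicate 4), Elf3 (log2 -8.20 ± 0.30) and Gata4 and Gata6 (log2 -2.10 ± 0.16 and -2.69 ± 0.14). Cdx1, a homeobox factor of intestinal identity, stood at 0, 0, 0 and 2.51 CPM in liver and 146, 137, 111 and 107 CPM in small intestine (log2 -7.63 ± 0.38, or -11.51 without liver replicate 4). Cdx2, its partner, stood at 49.3, 45.5, 49.5 and 39.2 CPM in small intestine and had 1 read in liver, from replicate 4, a ratio of 394 (95% counting interval 70.5 to 15601). Onecut1 missed the read filter, at 10.6, 20.3, 3.13 and 4.01 CPM in liver, and had no read in small intestine, at least 44.3-fold higher in liver.

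The sequences before the start sites of 5 genes with contrasting calls show letters that these factors are known to bind. The set holds Fabp1 (called higher in liver) and Apoa4 (called higher in small intestine), both among the genes high in both organs described below. Fabp2, Sis and Rbp2 were called higher in small intestine. Each line gives the 250 bases before the start site on the gene's own strand, 5′ to 3′, from RefSeq with build GRCm38.p6. The RefSeq start lies inside the GENCODE gene by 52 bases for Fabp1, 148 for Apoa4 and 4422 for Rbp2, which has longer transcripts in GENCODE, and matches its outer end for Fabp2 and Sis. Capitals mark matches on either strand to AAAGTCCA or AAAGTTCA (bound by HNF4 factors) or TTTATNG (bound by CDX factors).
Fabp1 (chr6:71199629-71199878, plus strand): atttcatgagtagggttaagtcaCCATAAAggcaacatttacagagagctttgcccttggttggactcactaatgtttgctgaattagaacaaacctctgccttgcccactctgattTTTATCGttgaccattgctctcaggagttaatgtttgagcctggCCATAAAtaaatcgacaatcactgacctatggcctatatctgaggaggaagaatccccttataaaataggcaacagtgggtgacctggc
Apoa4 (chr9:46240594-46240843, plus strand): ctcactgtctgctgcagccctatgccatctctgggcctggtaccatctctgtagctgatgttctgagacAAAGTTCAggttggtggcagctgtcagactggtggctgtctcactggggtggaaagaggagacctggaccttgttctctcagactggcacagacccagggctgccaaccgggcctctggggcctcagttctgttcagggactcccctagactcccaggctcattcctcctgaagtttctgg
Fabp2 (chr3:122894822-122895071, plus strand): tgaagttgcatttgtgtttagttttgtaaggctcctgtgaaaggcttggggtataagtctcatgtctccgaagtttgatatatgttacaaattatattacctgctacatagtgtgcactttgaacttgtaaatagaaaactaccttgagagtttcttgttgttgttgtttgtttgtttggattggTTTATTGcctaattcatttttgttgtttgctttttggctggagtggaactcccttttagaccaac
Sis (chr3:72967864-72968113, minus strand): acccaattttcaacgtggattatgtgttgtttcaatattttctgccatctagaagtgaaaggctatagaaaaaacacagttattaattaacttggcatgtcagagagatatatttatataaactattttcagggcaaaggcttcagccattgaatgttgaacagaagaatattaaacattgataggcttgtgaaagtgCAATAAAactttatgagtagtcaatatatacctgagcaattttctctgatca
Rbp2 (chr9:98490287-98490536, plus strand): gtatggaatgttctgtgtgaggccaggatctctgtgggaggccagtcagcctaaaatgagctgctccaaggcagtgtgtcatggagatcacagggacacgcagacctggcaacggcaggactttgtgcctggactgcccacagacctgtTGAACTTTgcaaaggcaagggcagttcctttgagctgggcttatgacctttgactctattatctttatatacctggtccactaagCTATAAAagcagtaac

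In these windows Fabp1 has CDX letters 227, 133 and 89 bases before its start. Apoa4 has the HNF4 letters 181 bases before its start, and Rbp2 101 bases before it, with CDX letters 16 bases before it that overlap TATAAA. Fabp2 has CDX letters 65 bases before its start, and Sis 52 bases before it.

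The same letters were counted in every RefSeq window of 300 bases, 250 before and 50 after the start. Windows were matched by symbol for 374 of the 483 genes called higher in liver with at least 200 CPM there, for 177 of the 234 such genes of small intestine, and for 35 of the 44 genes high in both organs described below. The HNF4 letters were in 3.98% of 478 liver windows, 7.14% of 224 small intestine windows, 16.3% of the 49 windows of genes high in both (8 windows) and 2.32% of the 11486 windows of tested genes. The CDX letters were in 12.3%, 13.4%, 16.3% and 7.14% of the same windows, and 33.3% of all windows with them have a match that overlaps TATAAA. A gene can have several windows that share bases, the motifs were chosen after the differences were known, and no test was made. A match is a stretch of letters, and binding was not measured.

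The crypts of the small intestine renew its epithelium throughout life, and genes of cell division were higher there. Of 24 genes, 23 were called higher in small intestine, none higher in liver, and Tk1 was not called (median log2 -4.37, 24.2% of all tested genes called in that direction). Mki67, a protein of cycling cells, stood at 1.33, 0.992, 3.13 and 4.51 CPM in liver and 59.9, 81.8, 66.7 and 51.8 CPM in small intestine (log2 -4.70 ± 0.27, adjusted p = 1.06e-10). Top2a, which untangles replicated DNA, was 34.95-fold higher in small intestine (log2 -5.09 ± 0.22). Tk1, the cytosolic thymidine kinase, stood at 24.1 ± 6.02 CPM in liver and 25.6 ± 3.54 CPM in small intestine (log2 -0.09 ± 0.18, adjusted p = 0.671).

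Markers of the other cells of each organ differed with it. In small intestine, all tested markers of Paneth cells (10), goblet cells (8), enteroendocrine cells (12), tuft cells (2 of 6 on the list) and smooth muscle (8) were called higher. The Paneth list summed to 31373 to 55451 CPM in small intestine and to 28.4 to 41.1 CPM in liver replicates 1 to 3, with 329.7 CPM in liver replicate 4. Of plasma cell and B cell markers, 8 of 8 tested were called higher in small intestine: Igha, the heavy chain of IgA, stood at 5.32, 1.98, 4.47 and 38.1 CPM in liver and 1854, 2750.4, 2273 and 1898 CPM in small intestine (log2 -7.49 ± 0.52, or -9.08 without liver replicate 4). All 9 tested T cell markers were called higher in small intestine. The 13 markers of that list, tested or not, summed to 82.9 to 148.3 CPM there against 13.9 to 18.2 CPM in liver. Of 6 markers of the crypt base, 5 were called higher in small intestine, Olfm4 at 489 ± 132 against 1.68 ± 1.23 CPM, and Lgr5 was not called, at 15.5, 4.96, 14.7 and 9.02 CPM in liver and 15.6, 20.4, 15.5 and 12.2 CPM in small intestine (log2 -0.51 ± 0.27, and -1.36 and called with library totals).

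In small intestine, Muc2, the main mucin of goblet cells, stood at 743 ± 84.8 CPM against 4.91 ± 4.63 CPM in liver (log2 -7.25 ± 0.31, or -8.04 without liver replicate 4). Among hormone genes of enteroendocrine cells, Cck stood at 21.8, 31.97, 36.3 and 55.4 CPM, Gip at 103, 80.9, 81.96 and 114 CPM and Sct at 91.7, 71.6, 58.4 and 76.3 CPM in small intestine replicates 1 to 4, and their liver means were 0.251, 0.5 and 0.236 CPM. Myh11, the smooth muscle myosin, stood at 252 ± 23.4 CPM in small intestine and 6.85 ± 1.16 CPM in liver (log2 -5.20 ± 0.15).

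In liver, all 6 tested markers of Kupffer cells, the resident macrophages, were called higher, 4 of them with library totals. All 7 markers of that list summed to 247.1 to 282.3 CPM against 5.66 to 8.996 CPM in small intestine. Clec4f and Vsig4 had no read in small intestine, and Clec4f stood at 105, 94.8, 111 and 91.7 CPM in liver, at least 468-fold higher. Of 8 markers of sinusoidal endothelium, 7 were called higher in liver, and 5 with library totals. Stab2 stood at 72.9 ± 6.58 against 0.573 ± 0.412 CPM (log2 6.88 ± 0.24). Of 8 stellate cell markers, 5 were called higher in liver and 2, Des and Rgs5, higher in small intestine, both of which smooth muscle or pericytes also express. With library totals 4 stellate cell markers were called higher in liver. Of 8 markers of bile duct cells, 7 were called higher in small intestine, whose epithelium shares keratins and Epcam with them, and Spp1 was called higher in liver (log2 6.20 ± 0.32, or 6.80 without small intestine replicate 3). Bile duct cells can therefore not be read from this list.

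Genes of the exocrine pancreas appeared at low levels in both organs. Their 10 markers summed to 283.5, 804.9, 411.8 and 33.6 CPM in liver replicates 1 to 4 and to 33.6, 37.1, 116.3 and 366.3 CPM in small intestine replicates 1 to 4. Ctrb1, a chymotrypsinogen, stood at 54.1, 185, 74.6 and 0 CPM in liver and 5.31, 7.92, 23.1 and 104 CPM in small intestine. It was not called, except without liver replicate 4 (log2 1.63) or without small intestine replicate 4 (log2 2.64). Liver replicate 4, the library with the most small-intestine transcripts, thus had the fewest pancreatic ones. Of the 9 tested, 4 were called higher in liver, 9 without liver replicate 4 or small intestine replicate 4, 1 or 2 without liver replicate 2 or 3 or any other small intestine library, and 0 with library totals. The part of pancreatic or intestinal transcripts in other differences was not tested.

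Some genes were higher in both organs than in every other tissue. Over all 60 libraries, scaled together so that these CPM differ from those above, 44 genes had a mean of at least 20 CPM in liver and in small intestine and at least 3 times every other tissue in both. In all, 5302 genes had at least 20 CPM in both organs. Of the 44, 24 were on a list above and 8 on the lipoprotein list. In the comparison of the organs, 19 of them were called higher in liver, 4 higher in small intestine and 21 not called (15, 11 and 18 with library totals). Colon was the next tissue for 18 and kidney for 9. The colon libraries had 750212 to 951914 counts, of which mitochondrial ribosomal RNA took 0.736% to 0.928%, both below the ranges of liver and small intestine. The rule selects for levels in both organs, so these counts describe the set and carry no test.

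Apoa1 led the set, at 13292 ± 2993 CPM in liver and 10105 ± 2520.5 CPM in small intestine, with 19.2 CPM in the next tissue, brain. Apoc3 followed at 10499 ± 504 and 2123 ± 731 CPM, with 26.6 CPM in kidney, and Fabp1 at 8028 ± 1616 and 1939 ± 659 CPM, with 5.75 CPM in lung. For Apob the next tissue was kidney with 104 CPM and for Mttp kidney with 18.1 CPM. For P4hb, a chaperone of many secreted proteins, the next tissue, colon, had 519 CPM. Creb3l3 stood at 388 ± 94.9 CPM in liver and 393 ± 114 CPM in small intestine against 2.04 CPM in colon.

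Beyond lipid transport, the first 15 genes by their lower mean held citrulline and amino acid enzymes (Cps1, Oat and the alanine aminotransferase Gpt), cytochromes (Cyp3a11, Cyp4f14 and Cyp4v3), the acyl-CoA synthetase Acsl5 and the retinol dehydrogenase Rdh7. Cps1 stood at 10.1 CPM in its next tissue, colon, and Rdh7 at 1.34 CPM in its own, heart. Abcg5 and Abcg8, Otc, Nags, Tm6sf2, Pla2g12b, Soat2 and Apoa4 were also in the set. None of Gpt, Cyp4f14 and Cyp4v3 was called between the organs (log2 0.83, -0.80 and -0.60), and with library totals Gpt turned to -0.01 and the cytochromes were called higher in small intestine (-1.64 and -1.44). With colon left out of the other tissues, 28 more genes met the rule, among them Pigr, the carrier of IgA across epithelia, and Fabp2.

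**Figure D5:**
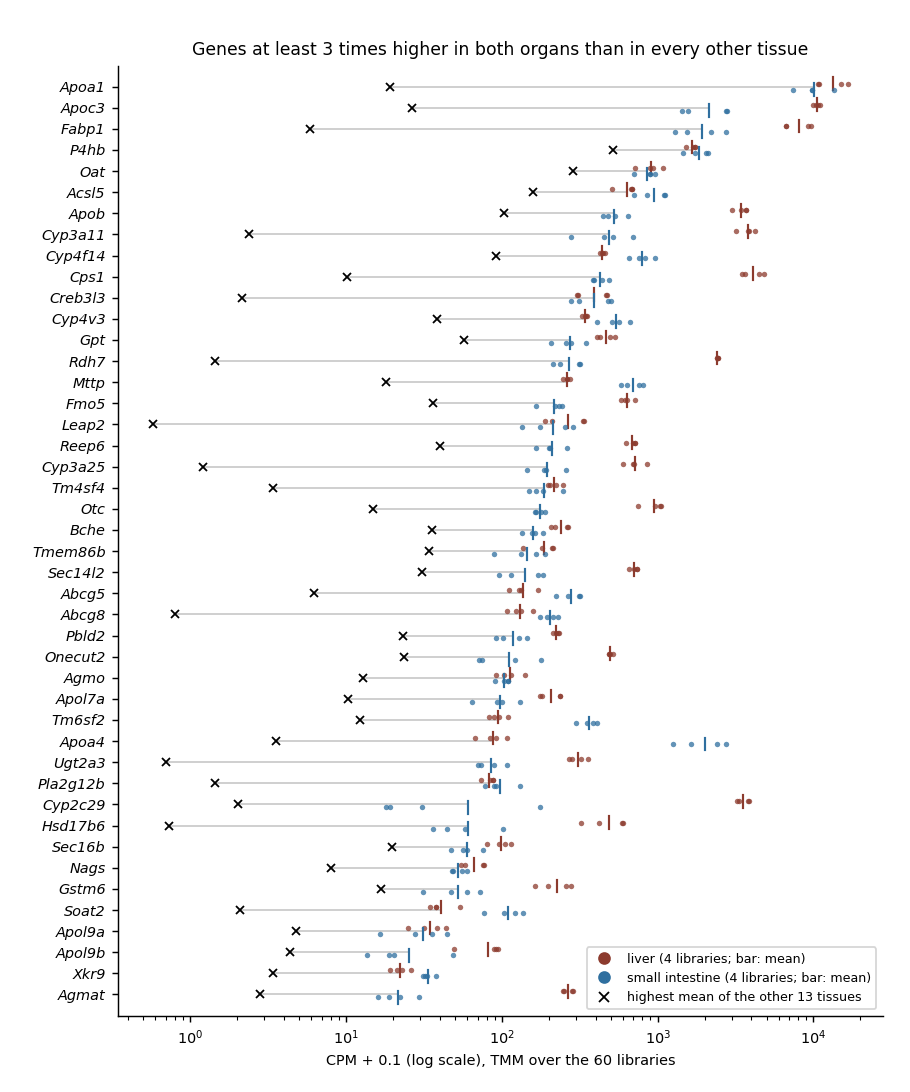
CPM scaled over 60 libraries (log x axis, 0.1 added) of the 44 genes high in both organs (y axis, ordered by the lower mean), with points for the 4 libraries of each organ, bars for means and a cross for the highest mean of the other 13 tissues. Apoa1 at the top lies near 13292 CPM in liver and 10105 CPM in small intestine, with its cross at 19.2 CPM.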

How the data were processed

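Per the labels' protocols, tissues went into RNAlater, TRIzol extraction and DNase treatment followed, and fragmented RNA was primed with barcoded oligo(dT) and sequenced on a NextSeq500. The deposited values are whole-number read counts per gene, made by the authors with FastQC, STAR and featureCounts on mm10, per the submitters' processing notes. Versions, the strand setting and the handling of reads that match several genes were not given in the sources read here, and no molecular identifiers are described, so counting intervals cover counting error only. All 54532 genes of the table have a symbol, and 54495 matched GENCODE mouse release 21 by identifier, from which coordinates were taken.

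The 8 libraries were fitted with edgeR 4.0.16 in R 4.3.3: filterByExpr by organ (minimum count 10, minimum total 15), TMM scaling, the two-sided quasi-likelihood F test with organ as the only term, and Benjamini-Hochberg adjustment over 11676 genes. The standard error is the log2 difference over the square root of F. Genes with no read in the lower organ are given as a fold from a floor of 3 counts over its 4 libraries, and genes with 1 to 3 reads as a ratio of pooled levels with a 95% exact counting interval. The alternatives tried were DESeq2 1.42.0 (its Wald test and its size factors), library totals, no filter, nuclear protein-coding genes only, the replicate block and leaving out each library. The script was tested on simulated counts with known changes. P-values measure the spread between these libraries, whose replicate mice are not tied to numbers in the labels.

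The gene lists, and this comparison itself, were chosen with earlier results of these data known. Genes named are the 8 largest differences in each direction at 200 CPM or more, members of the lipoprotein list, and of other lists the largest and smallest differences, members called against the majority and related genes with opposite calls. Others named as examples, among them the cell type markers, Srebf2, Creb3l3, Nr1i2, Onecut1, Fgfr4, Klb and Slc40a1, were chosen after their values were seen. Some list members are counted but not reported by name here. Promoter windows of 300 bases came from RefSeq, build GRCm38.p6.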

Additional observations from a re-analysis of the deposited data

Results flagged for a closer look

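In 24 of 407 groups of 4 libraries checked (a gene named above with at least 5 CPM, or a summed marker list, in 1 organ), the highest or lowest library stood apart from the other 3 by Dixon's test. That test sets the gap against the range of the 4 libraries, so a small gap can be flagged. Chance flags about 1 in 20 such groups.

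Liver replicate 4 was the high library for the summed Paneth list (329.7 CPM against 28.4 to 41.1 CPM), Defa24 (164.9 against 8.43 to 18.3 CPM), Fabp6 (20.04 against 1.49 to 1.79 CPM), Igha (38.08 against 1.98 to 5.32 CPM) and Agpat3 (169.9 against 129.0 to 134.4 CPM). It was the low library for Acsl5 (348.7 against 453.5 to 462 CPM). The first 4 are measures of small-intestine transcripts.

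Small intestine replicate 4 was the high library for Alpi (1104 against 563.5 to 609.9 CPM), Cyp2c29 (116.2 against 11.5 to 20.2 CPM), Fth1 (3893 against 2051 to 2163 CPM), Slc46a1 (115.1 against 49.5 to 60.2 CPM), Elovl6 (92.12 against 65.7 to 69.0 CPM) and the summed Kupffer list (8.996 against 5.66 to 6.19 CPM). It was the low library for Sort1 (58.29 against 69.9 to 70.9 CPM) and Srebf2 (33.47 against 44.98 to 45.7 CPM).

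The other libraries each had fewer such values. Liver replicate 1 was low for Lpin1 (164.6 against 489.8 to 548.2 CPM), Apoe (20260.0 against 21560.0 to 21830.0 CPM) and Dpp4 (109.6 against 117.6 to 119.3 CPM), and high for Ces2a (275.5 against 224.5 to 232.2 CPM) and Cyp2c54 (461 against 359.5 to 373.2 CPM). Liver replicate 3 was low for Apoh (2660.0 against 2780.0 to 2797 CPM), Tfr2 (247.4 against 274.1 to 277.4 CPM) and Slc46a1 (28.14 against 36.2 to 36.8 CPM). Liver replicate 2 was low for Sort1 (8.93 against 11.98 to 12.5 CPM), and small intestine replicate 3 for Abcc2 (133.8 against 174.8 to 181 CPM).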

How the results depend on the processing

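The count of genes called higher in liver was 1313 with library totals in place of 2353, and that higher in small intestine was 5318 in place of 2820. Without a filter, 25327 genes were tested and 4280 were called higher in small intestine. Under the other alternatives both counts stayed within 1.5 times: DESeq2's Wald test called 2306 and 2853, its size factors 2301 and 2859, no filter 3173 for liver, and nuclear protein-coding genes alone 2139 and 2628. Leaving out 1 library gave 2368 to 2445 genes for liver and 2858 to 3065 for small intestine. The genes high in both organs numbered 68 at 2 times the next tissue, 72 without colon and 34 with library totals, in place of 44.

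With the replicate block the counts were 2359 and 2810, and no call of a gene named above changed, while the pancreatic list had 2 calls in place of 4. The deviations of libraries with the same number had r of -0.092 to 0.095, and those of libraries with different numbers -0.079 to 0.086. Among the liver libraries only replicate 3 correlated best with its own number. Different organs of a mouse need not deviate together, so these values cannot tell whether a number marks a mouse.

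With library totals, 197 of 238 named genes kept their direction and call, 11 lost a call, 11 gained one and 19 changed sign, none of which had been called. Those 19 were Sar1a (-0.65), Sar1b (-0.034), Apoa1 (-0.39), Cd36 (-0.73), Agpat2 (-0.41), Ces2a (-0.57), Cpt2 (-0.34), Creb3l3 (-0.80), Gpt (-0.011), Gsta4 (-0.70), Hadha (-0.019), Hadhb (-0.12), Hnf4a (-0.48), Lrat (-0.0071), Nags (-0.47), Nr1i2 (-0.33), Oat (-0.72), Pigr (-0.79) and Tkfc (-0.18). With library totals, 5 counts over a list also moved by more than 1.5 times. Creb3l3 was -0.044 and Pigr -0.028 without a filter. With DESeq2, Abcg5 and Slc46a1 gained a call. Over the fits that leave out 1 library, the log2 difference turned sign for Creb3l3 (-0.10 to 0.16), Cd36 (-0.0094 to 0.28), Fth1 (-0.23 to 0.14), Gsta4 (-0.014 to 0.50), Gstp1 (-0.14 to 0.074), Pigr (-0.024 to 0.22), Srebf2 (-0.21 to 0.047) and Tk1 (-0.25 to 0.051), none of them called. With nuclear protein-coding genes alone, 5 plasma and B cell markers were called in place of 8, since immunoglobulin segments were then not among the genes tested. The cause of the other changes was not tested.

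Depth limits genes below about 1 CPM, where 3 or fewer reads in an organ give wide intervals. Library totals lower differences by about 0.84 where both organs have over 3 reads, so a difference in favour of liver below that size changes sign with the scaling.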

Other observations

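The genes of these 4 gene sets were picked after their values were seen, and their values are given with no test.

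Genes known for high levels in the first part of the small intestine were mostly highest in small intestine replicate 4. This held for 6 of 7 genes, and the exception, Lct, was highest in replicate 1. S100g, a calcium-binding protein of the duodenum, stood at 23.9, 116, 326 and 784 CPM in small intestine replicates 1 to 4. The iron exporter Slc40a1 stood at 7.67, 19.8, 32.5 and 69.1 CPM, and the folate carrier Slc46a1 at 60.2, 49.5, 49.5 and 115 CPM. Of 8 genes known for high levels in the last part, 4 were lowest in replicate 4 and 4 in replicate 3, and 6 were highest in replicate 1. Fabp6, the ileal bile acid-binding protein, stood at 3014, 3179, 2463 and 1394 CPM, and the hormone Fgf15 at 40.7, 41.9, 28.3 and 12.95 CPM. The bile acid carrier Slc10a2 spanned 67.8, 46.4, 43.3 and 9.36 CPM. The segment is not given in the labels. Replicate 4 also had the highest pancreatic sum of the 4, given above.

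Genes of fat synthesis and genes known to rise in fasting differed between the liver libraries in different order. Of 9 genes of fat synthesis, 8 were highest in liver replicate 2 and 6 were lowest in liver replicate 4. Thrsp stood at 379, 824, 244 and 301 CPM in liver replicates 1 to 4, and Acly, which makes cytosolic acetyl-CoA, at 292, 499, 217 and 162 CPM. Of 9 genes known to rise in fasting, 8 were highest in liver replicate 4 and 6 were lowest in liver replicate 2. G6pc, a gene of glucose release left out of this set, went the other way. It was highest in liver replicate 2 and lowest in liver replicate 4 (values given above). Angptl4, an inhibitor of lipoprotein lipase, stood at 130.01, 159, 259 and 308 CPM, and Cyp4a14, a fatty acid hydroxylase, at 613, 587, 773 and 1133 CPM. Pck1, a gene of glucose synthesis, stood at 1344, 1629.6, 2217 and 2510.4 CPM. The labels give no feeding state.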
